A study of Macrobrachium nipponense with 2 samples.

Results

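Giant transcripts, here the assembly components whose longest sequence reaches 10000 bases, were described in the hepatopancreas and muscle of the oriental river prawn Macrobrachium nipponense. A component is the set of assembled sequences whose IDs differ only in the final sequence number, and such sequences are often alternative forms of the same RNA. The rule used length alone. It took 14 of 71231 components, with 296 of the 98560 listed sequences and 3.66% of all listed bases. Their longest sequences ran from 10018 to 26613 bases.

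By the labels, the prawns were juveniles bought at a market and kept for 72 h in aerated freshwater before the hepatopancreas and muscle were removed. The labels give no treatment and no other difference between the groups than the tissue. Each tissue has 1 library, prepared with a TruSeq RNA kit from total RNA, and neither the number of prawns behind a library nor whether both came from the same prawns is given in the sources used here. The libraries held 99204205 estimated counts (hepatopancreas) and 80492031 (muscle). A tissue is represented by a single library, so no difference has a replicate check or a test. Each value describes these libraries alone, and intervals are exact 95% intervals that cover counting error only. In bulk tissue, fewer cells of a type and less RNA per cell cannot be told apart.

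The hepatopancreas is the digestive gland of crustaceans. It makes digestive enzymes and stores lipid, and it releases large lipid-carrying proteins into the haemolymph, among them vitellogenin, the yolk precursor that decapod females make there and in the ovary. Striated muscle of arthropods is known for giant proteins of the sarcomere, relatives of vertebrate titin such as those encoded by sallimus and bent in Drosophila. Their mRNAs are very long and are spliced into many forms that differ between muscles. The deposited table names no genes and holds no sequences, and 0 component IDs were found in the RefSeq gene table. None of the 14 components is tied to any of these proteins here, and the tissue labels could not be checked against marker genes. IDs are given for 4 components and the others are called by the length of their longest sequence.

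Most giant components differed widely between the 2 libraries. By a rule of size, at least a 4-fold difference on log2(CPM + 1) with at least 10 CPM in the higher library (CPM, counts per 1000000 counts of the library), 5 of the 14 were called for the hepatopancreas, 6 were called for muscle, and 3 met the rule in neither direction. Among all 71231 components, the rule called 3.5% for the hepatopancreas and 1.3% for muscle. All 14 giant components reached 10 CPM in at least 1 library. Of the 6111 components that did so, it called 40.8% for the hepatopancreas and 15.2% for muscle. In 7 of the 14 giant components there was a log2 ratio of 6 or more in either direction, against 6.39% of the 1627 components whose longest sequence has at least 3000 but under 10000 bases, here called shorter components. Within the shorter class that share was 5.04% from 3000 to under 4000 bases, 6.97% from 4000 to under 6000 bases, 11.9% from 6000 to under 8000 bases and 17.6% from 8000 bases to the limit. Over all 71231 components it was 0.883%. Because of the added 1, a component at low CPM cannot reach such a ratio, and CPM is not scaled by length. The median CPM of the giant components was 63.6 in the hepatopancreas and 103 in muscle. In the shorter components these medians were 23.8 and 10.4, and no share at matched levels was taken.

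Against the shorter components, the giant components were more often higher in muscle and about as often higher in the hepatopancreas. The shares were 42.9% against 10.1% for muscle and 35.7% against 30.6% for the hepatopancreas. Of the 1453 shorter components that reached 10 CPM, 11.4% were called for muscle and 34.3% for the hepatopancreas. The share higher in muscle also differed within the shorter class. It was 9.97% from 3000 to under 4000 bases, 8.29% from 4000 to under 6000 bases, 16.5% from 6000 to under 8000 bases and 23.5% from 8000 bases to the limit. The share higher in the hepatopancreas lay between 23.5% and 32.1% in these bins. The last bins are small, with 34 components from 8000 bases to the limit, and no test of the difference was made.

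**Figure D1:**
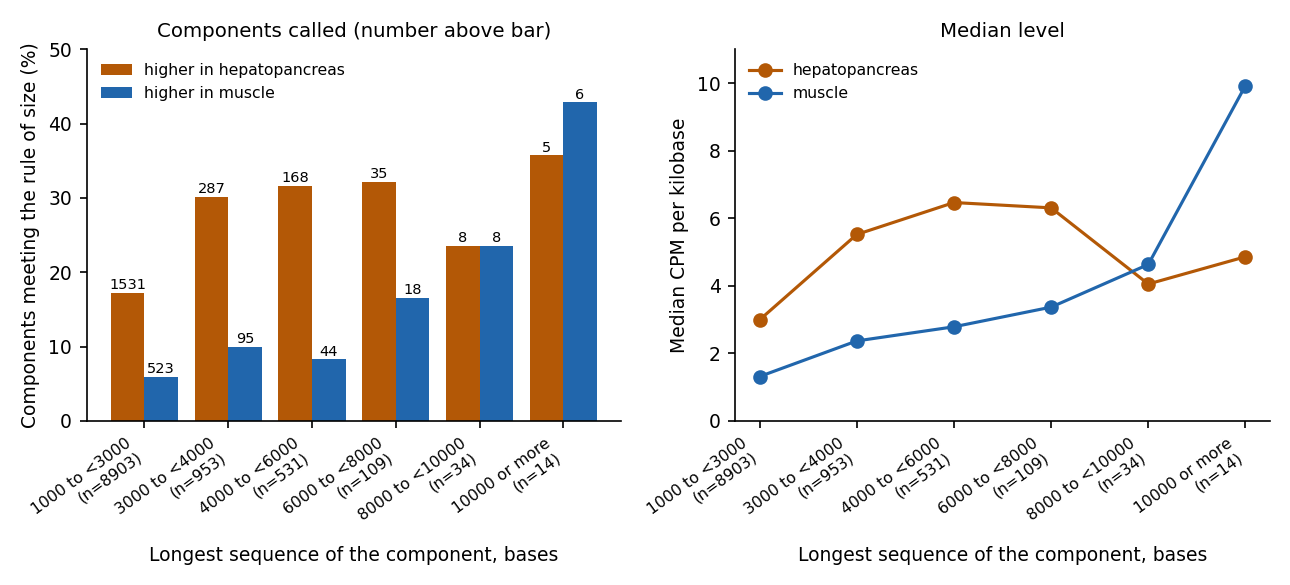
Components by the length of their longest sequence (x axes, bases, with the number of components). Left, bars give the percentage that met the rule of size in each direction, with the number called above each bar. Right, points give the median CPM per kilobase in each library. From 10000 bases, 6 of 14 components were higher in muscle, and the median was 9.92 in muscle against 4.86 in the hepatopancreas.

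Levels of components of unequal length were compared as CPM per kilobase, the CPM divided by the length of the longest sequence in kilobases. The median giant component had 4.86 CPM per kilobase in the hepatopancreas and 9.92 in muscle. The shorter components had medians of 5.84 and 2.54. Counting the longest sequence alone, the medians fell to 0.326 and 1.55 in the giant components and to 2.65 and 1.06 in the shorter ones. In muscle, 6 of the 14 lay above 23.4 CPM per kilobase, the level that 10% of the shorter components exceeded. In the hepatopancreas, 3 of the 14 lay above the same percentile of that library, 27.0 CPM per kilobase. Among the 34 shorter components from 8000 bases to the limit, this percentile was 193 in muscle and 18.3 in the hepatopancreas. The medians of these 34 were 4.63 and 4.05 CPM per kilobase in the same order. The log2 ratio, hepatopancreas over muscle, had a median of -0.77 in the giant components and of 1.14 in the shorter ones. Within the shorter class this median fell with length. It was 1.23 from 3000 to under 4000 bases and 1.07 from 4000 to under 6000 bases. From 6000 to under 8000 bases it was 0.82, and from 8000 bases to the limit 0.27. Over the 8649 components with at least 1 CPM in both libraries the median log2 ratio, here taken from CPM without the added 1, was 0.65. A ratio of 0 is thus itself below the typical component of that set.

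The 14 components together held 2.03% of the hepatopancreas counts (2.026% to 2.032%) and 1.23% of the muscle counts (1.231% to 1.236%). In the hepatopancreas this rested on the component of 10335 bases, which held 88.9% of the giant components' counts, and without it the share was 0.226%. In muscle the component of 22224 bases held 48.4% of them, and without it the share was 0.636%. The shorter components held 11.4% and 24.01%.

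**Figure D2:**
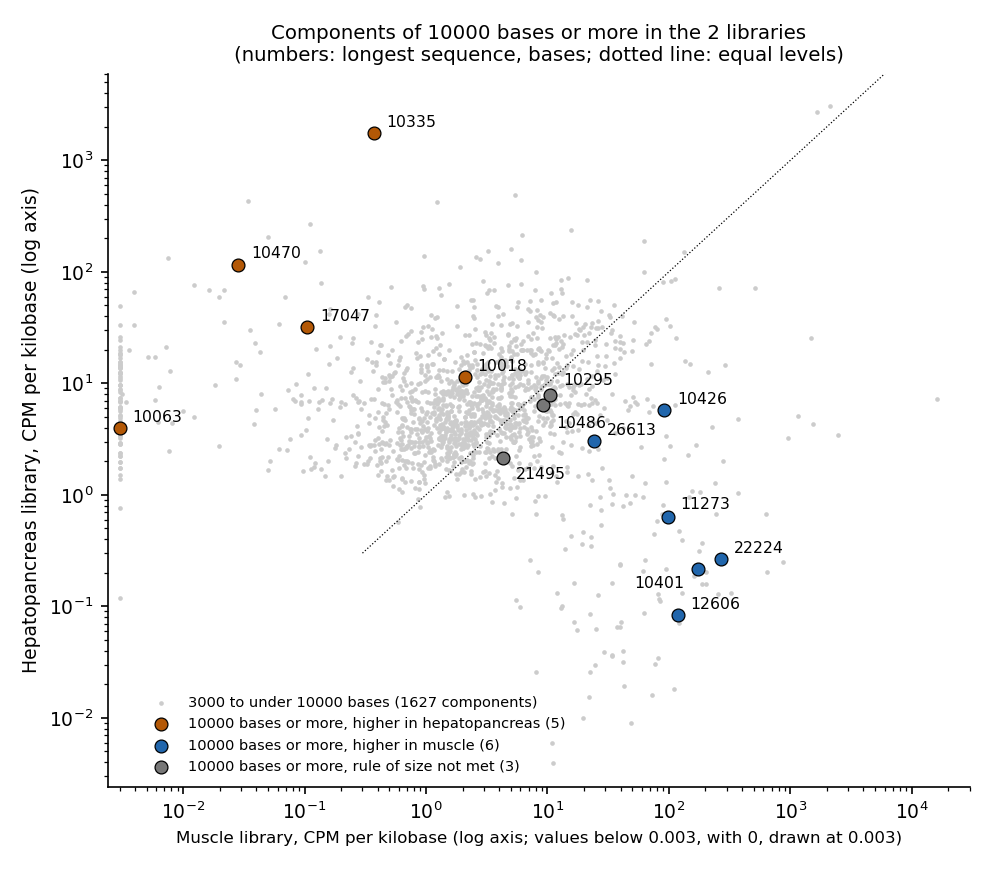
Each point is a component, with its CPM per kilobase of the longest sequence in muscle (x) and in the hepatopancreas (y), both on log axes. Grey points are the 1627 shorter components, and large points are the 14 giant components, coloured by the rule of size and labelled with their length. The 5 orange points lie above the dotted line of equal levels and the 6 blue points below it, and the 3 grey ones lie close to it.

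Among the giant components higher in the hepatopancreas, a single one was far above the rest. comp58860_c0, a single sequence of 10335 bases, drew 1788799 hepatopancreas counts and 310.6 muscle counts. This was 18031 CPM (18005 to 18058) against 3.86 CPM (3.44 to 4.31), a 4673-fold difference (4181 to 5239) and a log2 ratio of 11.86. It ranked ninth of all components by hepatopancreas count, with 1.80% of the library, and 51st by CPM per kilobase (1745). The second, comp53581_c0, is a single sequence of 10470 bases. It had 1215 CPM in the hepatopancreas (1208 to 1221) and, from 24 counts, 0.298 CPM in muscle (0.191 to 0.444), a 4073-fold difference (2737 to 6358). Per kilobase it stood at 116 CPM.

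The other 3 components of this kind were lower. The component of 17047 bases, again a single sequence and the longest of the 5, stood at 543 CPM in the hepatopancreas against 1.80 CPM (145 counts) in muscle, a 301-fold difference (256 to 357). The component of 10063 bases, with 3 sequences, had 39.7 CPM in the hepatopancreas and no counts in muscle. Set against 3 muscle counts, which equal 0.0373 CPM, it was at least 1065-fold higher. It was the only giant component without counts in a library, where 77 of the 1627 shorter components had none in muscle. The component of 10018 bases, with 12 sequences, stood at 114 CPM in the hepatopancreas against 21.1 in muscle, a 5.40-fold difference (5.13 to 5.68). Its log2 ratio of 2.38 became 1.73, below the rule, once the median ratio of 0.65 was set to 0.

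The components higher in muscle had longest sequences of 10401 to 26613 bases, against 10018 to 17047 for those higher in the hepatopancreas, and were closer to each other in level, at 24.3 to 269 CPM per kilobase in their own library against 3.94 to 1745. comp55590_c1, whose longest of 10 sequences has 22224 bases, had the highest level. It held 480837 muscle counts, 5974 CPM (5957 to 5991), against 582 counts and 5.87 CPM (5.40 to 6.36) in the hepatopancreas. This 1018-fold difference (939 to 1106) gave a log2 ratio of -9.77, and the component ranked 20th of all components by muscle count. comp57379_c0, with 4 sequences of 10012 to 10401 bases, reached 1821 CPM in muscle against 2.26 in the hepatopancreas, an 806-fold difference (707 to 923). Per kilobase these components stood at 269 and 175 CPM in muscle.

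The component of 12606 bases, a single sequence, reached 1503 CPM in muscle against 1.06 (105 counts) in the hepatopancreas, a 1420-fold difference (1173 to 1737). The component of 11273 bases reached 1108 CPM in muscle against 7.15 in the hepatopancreas, a 155-fold difference (144 to 167). These 4 components were thus nearly confined to the muscle library, with 0.0868% to 0.795% of their muscle count in the hepatopancreas. The other 2 were not. The component of 10426 bases reached 959 CPM in muscle against 60.2 in the hepatopancreas, a 15.9-fold difference (15.5 to 16.4). The component of 26613 bases, which holds the longest sequence of the table, reached 647 CPM in muscle against 80.6 in the hepatopancreas, an 8.03-fold difference (7.84 to 8.22). Per kilobase of its longest sequence it was the lowest of the 6, with 24.3 CPM in muscle.

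Counts of the most uneven components in the lower library were set against those of abundant components called in the same direction. Such a call itself asks for a lower level in the other library, and by their limits the sets include these giant components. Over 83 components higher in the hepatopancreas with at least 100000 counts there, the median muscle count was 0.0145% of the hepatopancreas count (quartiles 0.00932% and 0.0324%). It was 0.0174% for comp58860_c0 and 0.0199% for comp53581_c0. Over 45 components higher in muscle with at least 100000 muscle counts, the median hepatopancreas count was 0.163% of the muscle count (quartiles 0.0960% and 0.549%), against 0.121% for comp55590_c1, 0.0868% for the component of 12606 bases and 0.153% for comp57379_c0. The part of RNA or reads passed between the samples in these low values was not tested.

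The 3 components that met the rule in neither direction differed less between the libraries and were all higher in muscle. The component of 21495 bases had 45.8 CPM in the hepatopancreas (44.5 to 47.2) and 93.4 CPM in muscle (91.3 to 95.5), a 2.04-fold difference. The component of 10486 bases had 67.0 and 97.1 CPM, a 1.45-fold difference, and that of 10295 bases had 80.6 and 109 CPM, a 1.35-fold difference. The counting intervals of the libraries did not overlap in any of the 3, but without replicates it cannot be set against the spread between samples. Relative to the median ratio of 0.65, their log2 ratios were -1.66, -1.18 and -1.08.

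**Figure D3:**
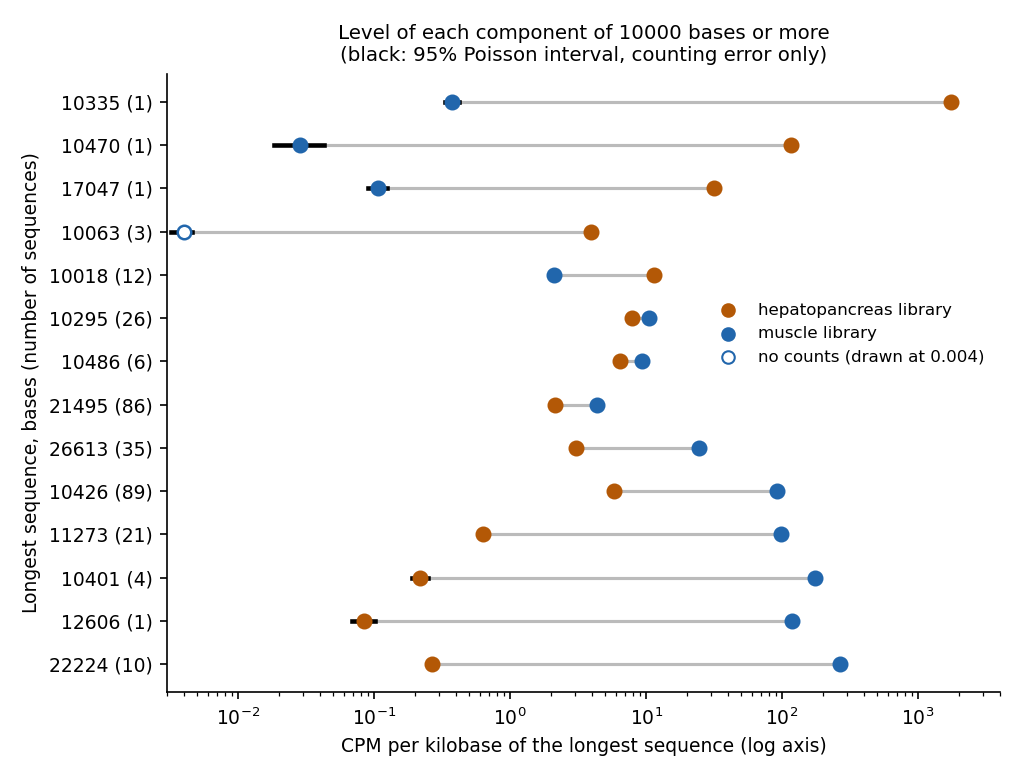
CPM per kilobase of the longest sequence (x, log axis) of the 14 giant components in the hepatopancreas (orange) and muscle (blue) libraries, ordered by their ratio, with length and number of sequences at the left. Black bars are 95% Poisson intervals, which for most points are narrower than the symbol. The pairs lie up to 4673-fold apart at the top and 1.35-fold apart in the middle.

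The giant components higher in muscle held more alternative sequences in total than those higher in the hepatopancreas, 160 against 18. Of the 160, 89 were in the component of 10426 bases, where 53 had no counts in either library. The others higher in muscle held 35, 21, 10, 4 and 1, and those higher in the hepatopancreas held 12, 3, 1, 1 and 1. Of the 5 higher in the hepatopancreas 3 were single sequences, and of the 6 higher in muscle 1 was. Over all 14 the median was 8 sequences, against 3 in the shorter components. At least 20 sequences were listed for 5 of the 14 (35.7%) and for 2.83% of the shorter components, while single sequences were 28.6% and 22.9%. Over all 71231 components these shares were 0.124% and 84.3%. The number of sequences also rose with length within the shorter class. The share with at least 20 was 1.47% from 3000 to under 4000 bases and 3.39% from 4000 to under 6000 bases. It was 9.17% from 6000 to under 8000 bases and 11.8% from 8000 bases to the limit. The medians in these bins were 2, 3, 4 and 5 sequences. The component of 10426 bases held 89 sequences and that of 21495 bases held 86, the largest numbers of all 71231 components. The component of 26613 bases held 35, that of 10295 bases 26 and that of 11273 bases 21.

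Many of these sequences had no reads assigned to them. Of the 296 sequences of giant components, 135 (45.6%) had no counts in either library, against 9.51% of the 7778 sequences of the shorter class. Most came from the components of 21495 bases (66 of 86) and of 10426 bases (53 of 89). In both, the longest sequence itself was at 0 in both libraries, and the longest sequences with counts had 21384 and 10400 bases. All 14 components would therefore still reach 10000 bases if only sequences with counts were used. Of the 119 sequences of at least 10000 bases, 57 had counts.

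Where counts were found, they often lay on shorter sequences. In the component of 26613 bases, 60.8% of the muscle counts and 57.9% of the hepatopancreas counts were on its 6 sequences of at least 10000 bases, and the mean length weighted by counts was 12471 bases in muscle and 12766 in the hepatopancreas. Divided by this mean instead of by the longest length, its level was 51.9 CPM per kilobase in muscle and 6.31 in the hepatopancreas. A sequence of 2221 bases held 59.1% of the hepatopancreas counts of the component of 10295 bases, while the longest sequence was the leading one in muscle with 26.6%. Divided by its weighted mean lengths, that component had 16.2 CPM per kilobase in the hepatopancreas and 16.3 in muscle. The only sequence of at least 10000 bases in the component of 10018 bases held 5.05% of the hepatopancreas counts and none of the muscle counts. By contrast, all sequences of comp55590_c1 were at least 19319 bases long.

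**Figure D4:**
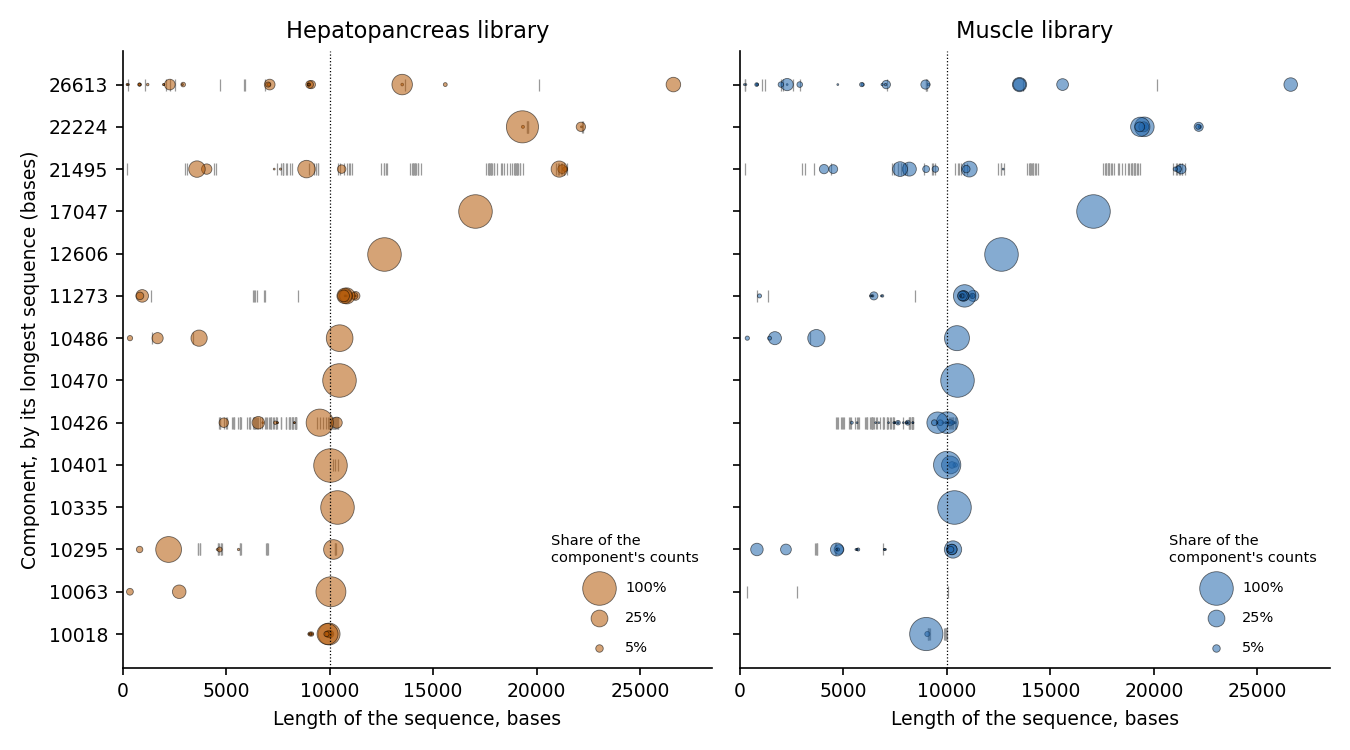
Every sequence of the 14 giant components by its length (x, bases), with 1 row per component, in the hepatopancreas library (left) and the muscle library (right). Circle area gives the share of the component's counts in that library, grey ticks are sequences without counts, and the dotted line marks 10000 bases. The rows of 21495 and 10426 bases are mostly ticks, and in the row of 10295 bases the largest circle is at 2221 bases in the hepatopancreas and at 10295 bases in muscle.

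The libraries also placed counts on different sequences of the same component. For the 9 giant components with several sequences and counts in both libraries, the overlap of the shares, summing for each sequence the smaller of its shares in the libraries, ran from 0.262% to 91.4%, with a median of 15.9%. In the 1200 such shorter components the median was 60.8% (quartiles 32.8% and 84.3%). The leading sequence differed between tissues in 7 of the 9 giant components (77.8%) and in 48.6% of the shorter ones. The overlap was lowest in the component of 10426 bases, led by a sequence of 9524 bases in the hepatopancreas (65.6%) and by one of 10020 bases in muscle (42.2%). In the component of 10018 bases, at 1.54% overlap, a sequence of 9002 bases held 97.7% of the muscle counts and one of 9976 bases held 42.5% of the hepatopancreas counts. At 91.4% overlap, the longest sequence of the component of 10486 bases led in both libraries with 63.1% and 55.4%. The giant components had more sequences among which similar reads were divided, and the part of this in the low overlaps was not tested.

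In several giant components, sequences formed pairs that differed by the same length, and for most of these length steps the counts of the pairs stood in similar ratios. The steps were taken by a rule chosen after the counts had been seen: at least 2 pairs, no sequence in more than 1 pair of the step, and at least 80% of the component's sequences of 10000 bases or more with muscle counts covered. Of the 7 giant components with at least 4 such sequences, 4, all higher in muscle, had 9 steps that met it. Each component higher in the hepatopancreas had at most 1 such sequence, so none of them could enter. Over all 40 steps found at least 2 times in these sequences, the highest ratio of a step was within 2 times the lowest for 34, among them all 9 that met the rule. It was up to 3.80 times the lowest for the others, which were all in the component of 11273 bases. The 40 steps are not separate cases. Where the same 4 sequences make pairs at 2 lengths, the fold between the ratios is the same for both lengths. It was 1.05 for the steps of 156 and 233 bases in comp57379_c0. In comp55590_c1, the 10 sequences made 5 pairs that differed by 24 bases. The longer sequence had 3.32 to 3.91 times the muscle count of the shorter in each pair, 380997 against 99840 counts in total (79.2%). The same component had 4 pairs 57 bases apart, where the longer had 0.106 to 0.138 times the count of the shorter, and 4 pairs 2628 bases apart, with 0.214 to 0.321 times.

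The other 3 components held pairs of the same kind. The component of 11273 bases had 5 pairs 20 bases apart, with ratios of 5.27 to 5.69 and 84.6% of the counts on the longer sequences. Its most frequent step, 54 bases, fell outside the rule because sequences were in more than 1 pair, and its 7 pairs had uneven ratios of 1.22 to 4.64. In comp57379_c0, 2 pairs were 156 bases apart, with ratios of 0.427 and 0.448 and 29.99% on the longer. The same 4 sequences also made 2 pairs 233 bases apart, with ratios of 0.0597 and 0.0627. In the component of 10426 bases, 3 pairs were 130 bases apart (0.0801 to 0.0882 times) and 3 were 250 bases apart (0.0346 to 0.0411 times). Its 3 pairs 57 bases apart held 3831 muscle counts on the longer sequences and 3.30 on the shorter. That ratio (1019 to 1192 times) was as even as the others although the shorter sequences had only 0.0900 to 2.19 estimated counts each. Reads shared by a pair were divided between its sequences in the counting, and the steps of a component share sequences, so the pairs are not independent measurements, and the part of that division in the even ratios was not tested. Among steps that covered enough sequences but shared some between pairs, the 4 pairs 55 bases apart in the component of 10295 bases, which met the rule of size in neither direction, had ratios of 2.75 to 2.81. These pairs hold 2 sequences of 10240 bases with the same muscle count, 847.73 each, so each ratio occurs 2 times. The 3 pairs 144 bases apart in the component of 21495 bases had ratios of 2.24 to 4.45.

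**Figure D5:**
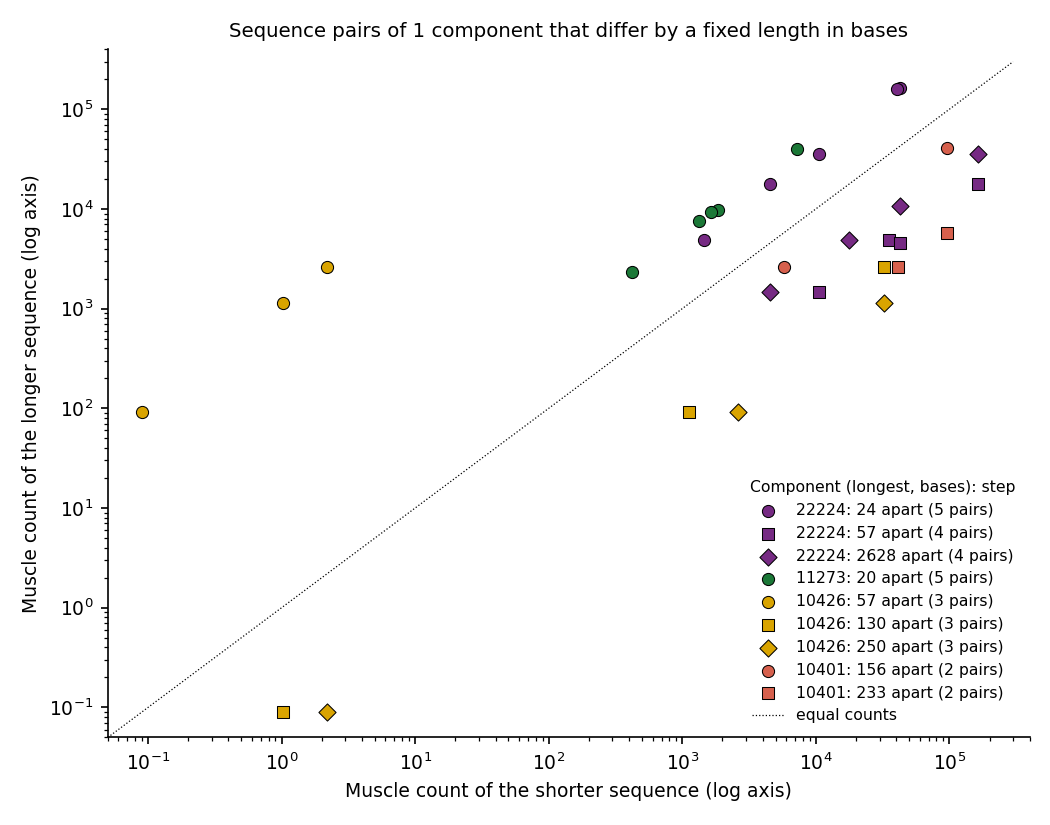
Muscle counts of pairs of sequences from the same component that differ by a fixed length, for the 9 steps that met the rule, with the shorter sequence on the x axis and the longer on the y axis (both log). Colours mark the 4 components and shapes their steps. Points of 1 colour and shape run nearly parallel to the dotted line of equal counts, for instance 3.32 to 3.91 times above it for the 24 base step of the component of 22224 bases.

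In the hepatopancreas the counts of these pairs were split in other proportions. For the step of 24 bases, 576 of 582 hepatopancreas counts lay on the shorter sequences and 0.952% on the longer, against 79.2% on the longer in muscle. For the step of 20 bases the longer sequences held 0.0928% of 485 hepatopancreas counts, against 84.6% in muscle. For the steps of 156 and 233 bases they held none of the 224 hepatopancreas counts. Only 45.7 hepatopancreas counts lay on the pairs 57 and 2628 bases apart in comp55590_c1, with none on the longer sequences for 57 bases and all on the longer ones for 2628 bases. In the component of 10426 bases, all 652 hepatopancreas counts of the paired sequences lay on 1 sequence of 10343 bases, which held 0.0900 muscle counts. These are few reads for such lengths, 26.2, 62.9 and 21.5 hepatopancreas counts per kilobase of the longest sequence in the components of 22224, 11273 and 10401 bases. How many reads covered the stretch that sets the longer sequence apart is not in the table. Without the sequences, it is not known here whether equal steps are the same stretch of RNA.

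Length steps that are multiples of 3, which would keep a reading frame if they lay within it, made up 34.4% of the 8825 pairs of unequal length in giant components and 37.4% of 41327 pairs in the shorter class, where arbitrary lengths would give 33.3%. The share differed among the giant components. It was 64.4% of the 45 pairs in comp55590_c1, where the recurring steps of 24, 57 and 2628 bases all are, and 50.5% of 210 pairs in the component of 11273 bases. It was 34.8% of 3654 pairs in the component of 21495 bases, although its most frequent steps of 111, 144 and 171 bases are multiples of 3, and 29.8% of 319 pairs in that of 10295 bases, where a step of 55 bases recurred 20 times. The component of 10295 bases held 6 pairs of sequences of equal length, which repeat some of its steps. Pairs of a component share their sequences and are not independent.

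IDs with the same first number as a giant component, but another second number, were listed for 4 of the 14, with 6 further components. A piece of 504 bases sharing the number of comp55590_c1 reached 158 CPM in muscle against 0.101 in the hepatopancreas, like it nearly confined to muscle. A piece of 5819 bases sharing the number of the component of 10063 bases had 73.4 CPM in the hepatopancreas and, like that component, no counts in muscle. Of the pieces that share a number with the component of 10426 bases, that of 1616 bases was higher in muscle (23.1 against 0.988 CPM) and that of 2477 bases stood at 23.0 against 19.4 CPM. Whether these pieces belong to the same RNAs is not known here.

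Just inside the limit of 10000 bases lay the components of 10018 and 10063 bases, both called for the hepatopancreas. Just outside lay a component of 9971 bases, with 23 sequences, 39.9 hepatopancreas CPM and 45.8 muscle CPM, and one of 9639 bases, with 12 sequences, 20.3 and 5.55 CPM in the same order. Neither of these met the rule of size.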

How the data were processed

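RNA sequencing of 1 hepatopancreas and 1 muscle library gave 1 deposited table with a row per assembled transcript. The authors' estimated counts are not normalized, and the authors' FPKM values are scaled by length and depth and were used here only as an alternative. The deposited p-value and false discovery rate columns hold the authors' own comparison and were not used. Which assembler, aligner and counting method produced the table is not given in the sources used here. Of the estimated counts above 0, 65.2% in the hepatopancreas and 72.4% in muscle were whole numbers (to within 1e-09), but 4.44% and 4.00% in the giant components, so most sequences there held reads divided with others.

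Counts were summed per component and divided by the column total (CPM) and by the longest length in kilobases. The rule of size asked for a ratio of 2 or more on the log2(CPM + 1) scale, which understates the change of low components, with at least 10 CPM in the higher library. No test was made. Poisson intervals for CPM, binomial intervals for shares and conditional binomial intervals for ratios are exact at 95%. Where a library had no counts, the fold was taken against 3 counts, which lie below the exact 95% upper limit. The rule of size and the ratio intervals were tested on simulated Poisson counts with planted differences. These had no spread between samples and no reads divided between sequences, so the simulation does not bear on either limit.

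The components and the rules were chosen with earlier results of these data known. By the rule for names, IDs were printed for at most 2 components per direction, those highest in CPM per kilobase among those called, and others were named by length. Here all 14 are described. Calculations ran in Python 3.11.15 with pandas 2.3.3, numpy 2.4.6 and scipy 1.17.1, and plots were drawn with matplotlib 3.10.9.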

Additional observations from a re-analysis of the deposited data

How the results depend on the processing

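The 5 components higher in the hepatopancreas and the 6 higher in muscle stayed at 4 or 5 and at 5 to 7 under 8 alternatives each, namely another pseudocount, 2 other minimum levels, 2 other ratios, the median log2 ratio set to 0, the longest sequence alone and FPKM. With the longest sequence alone, the components of 10018 bases (5.75 hepatopancreas CPM and no muscle counts) and 10426 bases were no longer called and that of 10295 bases was called higher in muscle. With a limit of 8000 bases (48 components) 13 were called for the hepatopancreas and 14 for muscle, and with 12000 bases (5 components) 1 and 3, since the limit sets how many components enter. The share of counts was 1.99% in the hepatopancreas and 0.191% in muscle with the longest sequence alone, 0.203% and 0.154% of the FPKM total, 2.22% and 2.55% from 8000 bases, and 0.0676% and 0.822% from 12000 bases. Without the component with the most counts, an alternative chosen after seeing the data, it was 0.226% and 0.636%. The median CPM per kilobase was 0.326 in the hepatopancreas and 1.55 in muscle with the longest sequence alone, 6.58 and 15.0 with lengths weighted by counts, 4.05 and 4.96 from 8000 bases, and 2.13 and 24.3 from 12000 bases. The median log2 ratio of -0.77 became -0.78 with a pseudocount of 0.1 CPM, -1.42 with the median ratio set to 0, -0.17 with the longest sequence alone, -0.18 from 8000 bases and -2.99 from 12000 bases. The median of 8 sequences became 7.5 for sequences of at least 1000 bases and also for those with counts, 5 from 8000 bases and 10 from 12000 bases. Values near 3 counts, 0.0302 CPM (hepatopancreas) or 0.0373 CPM (muscle), are limited by depth, and no comparison has replicates behind it. No paired analysis was possible because there is a single library for each tissue.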
